A study of Saccharomyces cerevisiae with 5 samples.

Results

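The intergenic spacers of the budding yeast ribosomal DNA, IGS1 and IGS2, separate one 35S rRNA gene from the next and are split from each other by the 5S gene. They were taken as all nucleotides that the deposited annotation marks as IGS1 (nt 6859 to 7773 of the repeat, chrXII:459797-460711) or IGS2 (nt 7895 to 9137, chrXII:458433-459675), which is 2 of 10 annotated regions and 2158 of 9137 nucleotides. RNA 3′ ends were counted there by native elongating transcript sequencing (NET-seq), a method that maps the last nucleotide of RNA held in an immunoprecipitated polymerase. RNA polymerase I (Pol I), which transcribes the 35S gene, was captured from Saccharomyces cerevisiae through a C-terminal HA and His tag on its second-largest subunit, Rpa135, after growth in YEPD, a rich medium. The genotypes were rpa190-F1205H, with 2 libraries, and WT, with 3, and the tag is described for the samples of both; F1205H lies in the trigger loop of Rpa190, the mobile element of the largest, catalytic subunit. Genotypes were taken from the labels' genotype field, since the mutant files carry WT in their own sample column and the titles spell the substitution F105H, and RPA190 itself is not measured. The many rDNA repeats are nearly identical, so that signal cannot be given to a single repeat.

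In rapidly growing yeast Pol I transcription ends mostly at T1 in the 3′ external transcribed spacer (3′ ETS), near a site bound by Reb1 or Nsi1 and past the hairpin cut by the nuclease Rnt1. Polymerases that pass T1 can stop at T2, a fail-safe terminator in IGS1, and IGS1 also holds the replication fork barrier sites RFB1 to RFB3, where the protein Fob1 stops replication forks that run against 35S transcription. IGS2 holds the replication origin rARS and, next to the following 35S gene, the Upstream Element of its promoter, which the upstream activating factor binds. Both spacers are also known for non-coding transcripts made by RNA polymerase II. Sense here means the strand of the 35S gene, which is transcribed toward lower coordinates of chromosome XII, and antisense means the strand of 5S, which RNA polymerase III transcribes.

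The features named in the annotation are printed as sense RNA, 5′ to 3′, because the results below are given for each of them. In the T2 line the capital marks T2 itself at nt 6898 (chrXII:460672-460672), with 10 nt on each side, chrXII:460662-460682. The barrier sites lie at chrXII:460637-460656 (RFB3), chrXII:460600-460619 (RFB2) and chrXII:460540-460559 (RFB1), the origin at chrXII:458991-459097, the promoter-proximal Reb1/Nsi1 site at chrXII:458637-458644 and the Upstream Element at chrXII:458483-458588. Coordinates are those of the deposited files, whose build is not given in the sources used here, and all lie on the minus strand.
T2: uuuuuucguuGcaaagauggg
RFB3: agagaagggcuuucacaaag
RFB2: gauuugcccggacaguuugc
RFB1: augagugcuuguauaaguuu
rARS: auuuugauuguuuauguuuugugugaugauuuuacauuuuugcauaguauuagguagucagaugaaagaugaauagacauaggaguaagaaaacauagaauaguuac
Reb1/Nsi1 promoter-proximal site: uuacccgg
35S Upstream Element: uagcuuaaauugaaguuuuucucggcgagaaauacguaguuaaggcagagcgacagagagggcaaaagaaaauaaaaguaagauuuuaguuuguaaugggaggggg

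The Reb1 core motif UUACCCG, searched on both strands, occurred 4 times in the repeat, once in IGS2 at this promoter-proximal site (nt 8926 to 8932, sense). It also occurred on the antisense strand in the 3′ ETS (nt 6756 to 6762), in 18S and in 25S, and not in IGS1. Of all 9038 stretches of 100 nt in the repeat 4.16% hold it.

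Signal was sparse in both spacers. The 2 mutant libraries held 1251 and 177 counts in IGS1 and IGS2 together, over both strands, and the 3 WT libraries 224, 165 and 211. These were 0.0654% and 0.0569% of all counts in the mutant libraries, against 0.0409%, 0.0351% and 0.0426% in the WT libraries. Values below are counts per 1000000 sense counts of the 35S gene (CPM), of which there were 1861226 and 301306 in the mutant libraries and 519517, 445251 and 465427 in the WT libraries. A count of 0 therefore allows up to 1.61 and 9.96 CPM in the mutant libraries, and 5.77, 6.74 and 6.45 in the WT libraries, taking 3 counts as the limit. Such limits, and all intervals below, cover counting error only. The two-sided exact permutation test has only 10 ways to split 5 libraries into 2 and 3 and cannot give a p below 0.2, so that no single value could pass a threshold of 0.05. Windows of 100 nt were tested with edgeR across the whole repeat. The labels do not say whether libraries came from separate cultures, so p-values measure the spread between these libraries, which may be technical.

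Relative to the 35S sense total, the ratio farthest from 1 was on the sense strand of IGS2. There 250 and 36 counts were found in the mutant libraries, which is 134 and 119 CPM, and 18, 11 and 15 counts in the WT libraries, which is 34.6, 24.7 and 32.2 CPM. Both mutant libraries lay above all WT libraries, and the lower mutant interval bound of 83.7 (95%, exact Poisson) lay above the highest WT bound of 54.8. The mean was 127 ± 10.5 in the mutant (SD, n = 2) and 30.5 ± 5.18 in WT (SD, n = 3), a ratio of 4.16 (exact permutation p = 0.2, adjusted p = 0.2 over the 4 combinations of spacer and strand).

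On the sense strand of IGS1 the order was the other way round. The mutant libraries had 184 and 28 counts (98.9 and 92.9 CPM) and the WT libraries 66, 61 and 51 (127, 137 and 110 CPM). The libraries did not overlap, but the intervals of single libraries did, from 61.8 to 134 CPM in mutant library 2 and from 81.6 to 144 in WT library 3. The ratio was 0.770 (95.9 ± 4.19 against 124.5 ± 13.9, exact permutation p = 0.2). It was 0.977, with overlapping libraries, when runs of 10 or more U or A were left out (exact permutation p = 1.0).

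On the antisense strand of IGS1 the mutant libraries had 702 and 94 counts (377 and 312 CPM), against 121, 87 and 127 counts in the WT libraries (233, 195 and 273 CPM). The ratio was 1.47 and the libraries did not overlap (exact permutation p = 0.2). It was 2.43 without positions within 20 nt of 5S. On the antisense strand of IGS2 the mutant libraries had 115 and 19 counts (61.8 and 63.1 CPM), and the WT libraries 19, 6 and 18 (36.6, 13.5 and 38.7 CPM). The mutant mean was 62.4 ± 0.899 (SD, n = 2) and the WT mean 29.6 ± 13.98 (SD, n = 3), a ratio of 2.11 with no overlap (exact permutation p = 0.2).

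**Figure D1:**
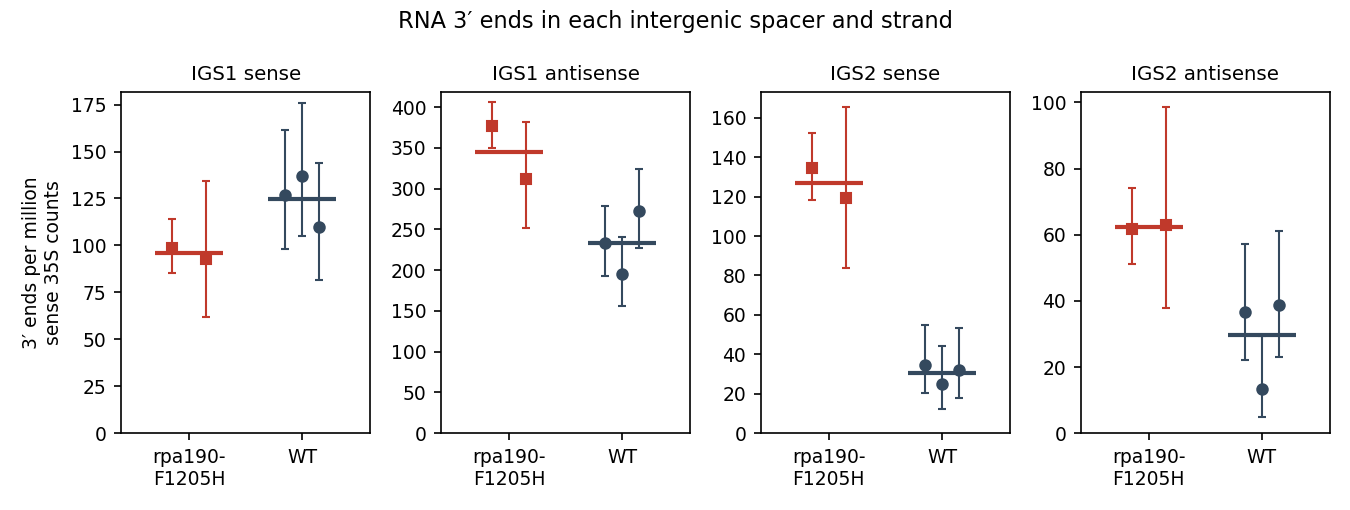
RNA 3′ ends in CPM (sense 35S counts as the total) in each spacer and strand, with 1 point per library, exact Poisson 95% intervals as whiskers and the group mean as a bar. The gap is widest for IGS2 sense, where the mutant libraries lie at 134 and 119 and the WT libraries between 24.7 and 34.6.

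The size of these ratios depends on what the libraries are scaled to. The antisense strand of the 35S gene also held more CPM in the mutant (1193 and 1079) than in WT (735, 559 and 614), a ratio of 1.79. The part of this shift in the spacer values was not tested. The IGS2 sense ratio was 4.27 relative to all counts, 3.19 when positions within 5 nt of the mature rRNA 3′ ends were left out of the 35S total, 2.33 per 35S antisense count and 1.37 per count of the spacers inside the 35S gene. Under all 5 scalings both mutant libraries lay above all WT libraries. The IGS1 sense ratio stayed below 1 under all 5, between 0.254 and 0.790. The antisense ratios did not keep their side. In IGS1 the antisense ratio was 1.13, with overlapping libraries, when mature 3′ ends were left out of the total (exact permutation p = 0.4), 0.818 per 35S antisense count and 0.485 per count of the spacers inside the 35S gene. In IGS2 the antisense libraries overlapped on the last 2 of these scales, with ratios of 1.21 and 0.702. Per count of the spacers inside the 35S gene, IGS1 sense (0.254) lay farther from 1 than IGS2 sense (1.37).

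**Figure D2:**
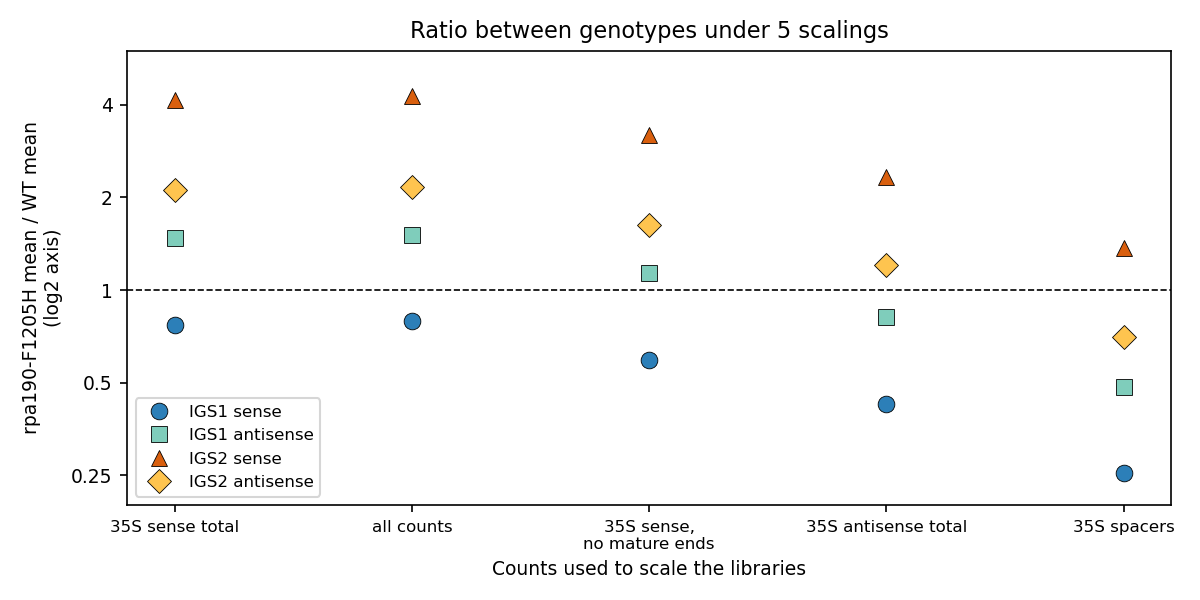
Mean of the mutant libraries divided by the mean of the WT libraries, on a log2 axis, for each spacer and strand under the 5 scalings named on the x axis; the dashed line marks equal means. IGS2 sense stays above the line (4.27 at most and 1.37 at least), IGS1 sense stays below it, and both antisense values cross it.

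Shares within a library are free of this choice. IGS2 held 57.6% and 56.3% of the sense counts of both spacers in the mutant libraries, and 21.4%, 15.3% and 22.7% in the WT libraries. The difference of 37.1 percentage points was between 34.8 and 38.6 with each library left out (exact permutation p = 0.2 with all 5). On the antisense strand the IGS2 share was 14.1% and 16.8% in the mutant libraries against 13.6%, 6.45% and 12.4% in WT, a difference of 4.63 percentage points that turned to -1.27 without positions within 20 nt of 5S (exact permutation p = 0.8) and was 2.45 without WT library 2. The sense strand took 20.8% and 23.0% of IGS1 counts in the mutant libraries and 35.3%, 41.2% and 28.7% in WT, and the difference of -13.2 percentage points was -27.6 without positions within 20 nt of 5S. In IGS2 it took 68.5% and 65.5% in the mutant libraries, and 48.6%, 64.7% and 45.5% in WT, where the interval of WT library 2, with 17 counts, ran from 38.3% to 85.8% (95%, exact binomial). The exact permutation p was 0.2 for both strand shares, also after adjustment over the 2 spacers.

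**Figure D3:**
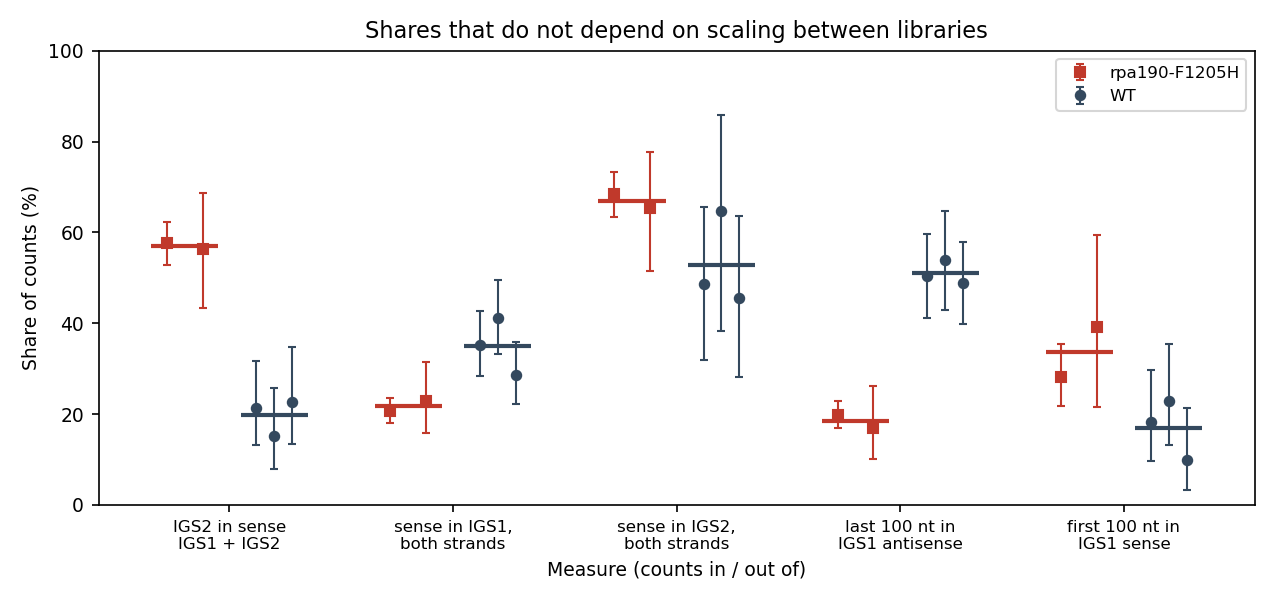
Shares of counts in percent that need no scaling between libraries, with 1 point per library, exact binomial 95% intervals and the group mean as a bar. IGS2 made up 57.6% and 56.3% of sense spacer counts in the mutant libraries and at most 22.7% in WT.

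Sense signal was also set side by side per length, in CPM per kb, from the end of the 35S gene onward. In the 91 nt of the 3′ ETS past the Reb1/Nsi1 site there were 2001 ± 251 CPM per kb in the mutant (SD, n = 2) and 1287 ± 119 in WT (SD, n = 3). In the first 100 nt of IGS1, which hold T2, RFB3 and the start of RFB2, there were 322 ± 60.6 in the mutant and 218 ± 104 in WT, with overlapping libraries. Over all of IGS1 the values were 105 ± 4.58 in the mutant and 136 ± 15.2 in WT, and over IGS2 they were 102 ± 8.44 in the mutant and 24.6 ± 4.17 in WT. The antisense strand of the 35S gene, for scale, had 166 ± 11.8 CPM per kb in the mutant and 92.8 ± 13.1 in WT.

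Along the spacers, 42 windows of 100 nt on either strand were examined, and 8 of them had enough counts for edgeR's filter. Of these 8, 4 rose and 2 fell in the mutant with edgeR's quasi-likelihood test (Benjamini-Hochberg adjusted p under 0.05). Over the whole repeat and both strands 75.3% of 93 tested windows were called, 36.6% higher and 38.7% lower, so that the share called in the spacers was near that of the repeat. A window could pass the filter through the counts of the mutant alone, as IGS2 sense nt 8395 to 8494 and IGS1 antisense nt 7159 to 7258 did. It could also pass through the counts of WT alone, as IGS1 sense nt 7159 to 7258 did. Without the filter 6 of 42 spacer windows rose and 3 fell, against 16.5% higher and 19.8% lower among all 182 windows. Under the scaling used (TMM) the median tested window lay at 0.03 on the log2 scale, at 0.48 when scaled to the 35S total and at -1.21 when scaled to the spacers inside the 35S gene. Log2 fold changes of windows below use TMM unless another scaling is named, while CPM uses the 35S total. A fold change therefore lies lower than the CPM values beside it would give. With mutant library 1 left out, none of the 8 spacer windows then tested rose and 2 fell (edgeR), and 3 were higher at an unadjusted p under 0.05. Scaled to the spacers inside the 35S gene, none of 7 rose, also at an unadjusted p under 0.05, and 4 fell. With DESeq2 and all libraries 3 rose and 2 fell.

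**Figure D4:**
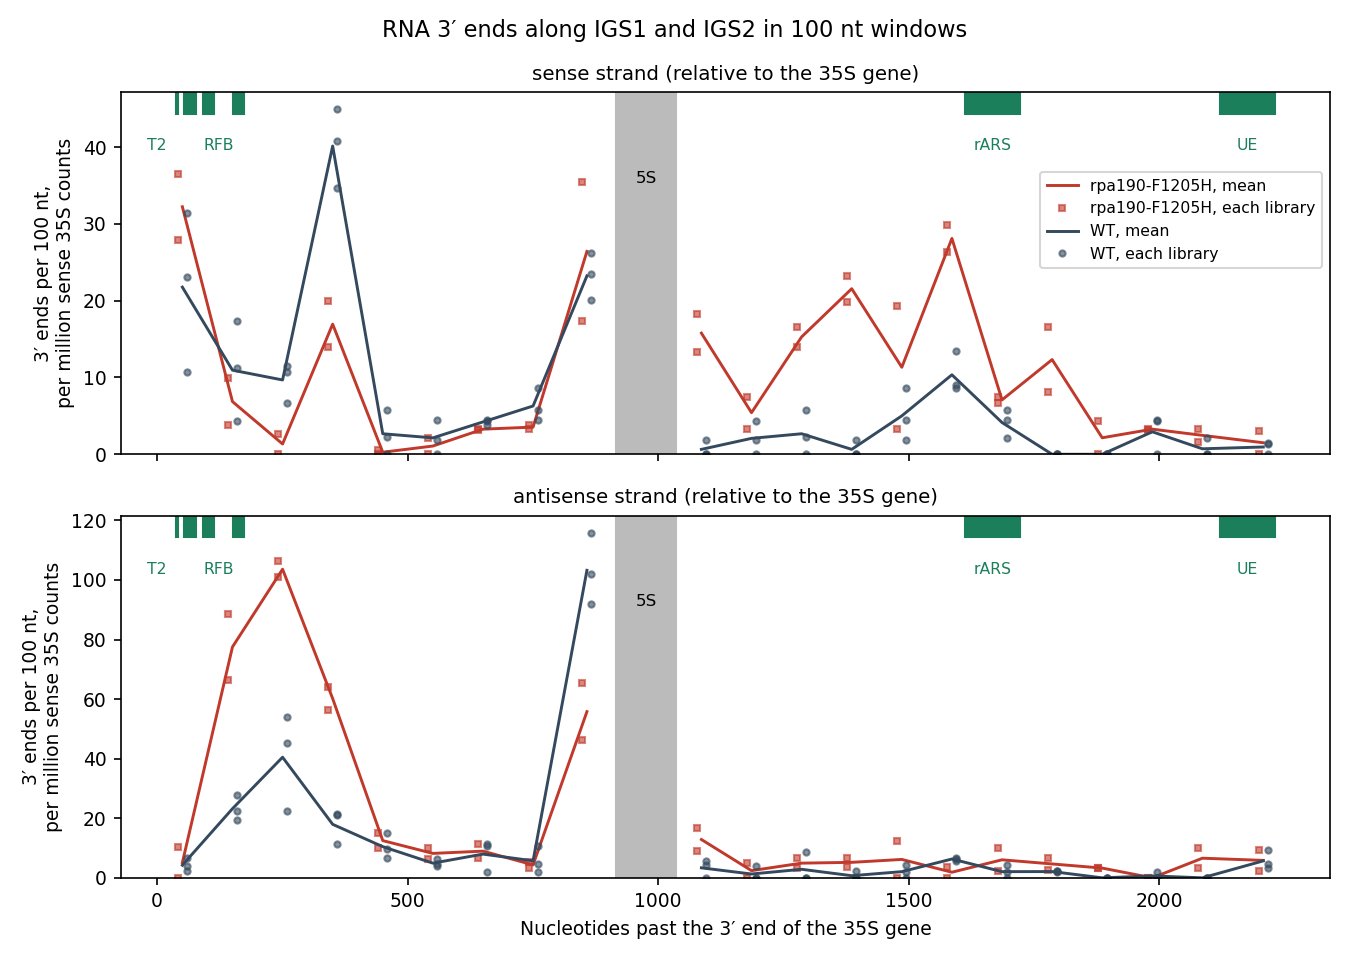
CPM per 100 nt along IGS1 and IGS2 on the sense strand (top) and the antisense strand (bottom); lines are group means and points single libraries, green marks the annotated features (UE, Upstream Element) and grey the 5S gene. Sense signal of the mutant lies above WT through much of IGS2, and antisense signal of the mutant forms a broad peak past the barrier sites in IGS1.

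In IGS2 the sense counts were spread rather than heaped. Mutant library 1 had its 250 counts at 181 positions and mutant library 2 its 36 counts at 34 positions, while the WT libraries had 18, 11 and 15 counts at 16, 11 and 14 positions. Only 1 of 1243 nucleotides reached 10 counts over the 5 libraries. This was nt 8420 (an A, chrXII:459150-459150), with 5 and 3 counts in the mutant libraries and 1 in each WT library.

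The IGS2 sense window with the most signal, nt 8395 to 8494, borders and partly overlaps rARS. It held 49 and 9 counts in the mutant libraries (26.3 and 29.9 CPM), against 7, 4 and 4 in WT (13.5, 8.98 and 8.59 CPM). Its log2 fold change was 0.89 ± 0.385 (SE, edgeR adjusted p = 0.0468), and since it passed the filter only through the mutant libraries this call is no support for a difference. Without the filter the edgeR adjusted p was 0.157, and the call was lost in 8 of 10 alternatives, with adjusted p up to 0.238 (DESeq2). The other 2 windows of highest mean were nt 8195 to 8294 and nt 8095 to 8194, which did not pass the filter. At nt 8195 to 8294 the mutant libraries had 37 and 7 counts and the WT libraries 1, 0 and 0. The ratio of pooled counts was 29.1, with a counting interval of 4.96 to 1175, and the log2 fold change without the filter was 4.12 ± 0.876 (edgeR adjusted p = 0.00107). At nt 8095 to 8194 there were 26 and 5 counts in the mutant libraries against 3, 1 and 0 in WT, which did not pass (edgeR adjusted p = 0.0678 without the filter).

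Next to 5S, at nt 7895 to 7994, the sense counts were 34 and 4 in the mutant libraries, and 1, 0 and 0 in WT (log2 fold change 3.88 ± 0.909, edgeR adjusted p = 0.00218 without the filter). At nt 8595 to 8694, just past rARS, they were 15 and 5 in the mutant libraries and 0 in all WT libraries. Set against 3 counts over the WT libraries, the pooled mutant rate was 4.41-fold higher there (edgeR adjusted p = 0.0101 without the filter). That ratio leaves out the counting error of the mutant and the spread between libraries, so it is no strict lower bound. These were the 3 spacer windows that rose on the IGS2 sense strand without the filter. In 6 of the 12 IGS2 sense windows both mutant libraries lay above all WT libraries in CPM, and in none below. Over the repeat the genotypes did not overlap in 62.6% of 182 windows, with the mutant higher in 52.7% and lower in 9.89%. The mutant was higher without overlap in 0 and lower in 4 of 9 IGS1 sense windows, in 4 and 1 of 9 IGS1 antisense windows, and in 5 and 1 of 12 IGS2 antisense windows.

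Toward the promoter the sense signal of IGS2 was low in both genotypes. In the 100 nt before the next 35S gene there were 8 and 0 counts in the mutant libraries and 1, 0 and 1 in WT. The Upstream Element held 0 and 0 sense counts in the mutant libraries and 1, 0 and 0 in WT, and 7 and 1 antisense counts in the mutant against 1, 0 and 0 in WT. The promoter-proximal Reb1/Nsi1 site held no count on either strand in any library. The 3 IGS2 antisense windows of highest mean were nt 8995 to 9137, nt 7895 to 7994 and nt 8395 to 8494. They had 25 and 1, 17 and 5, and 7 and 0 counts in the mutant libraries, against 7, 2 and 3, then 3, 0 and 2, then 3, 3 and 3 in WT. No IGS2 antisense window passed the filter or, without it, the test. The 2 positions of this strand with at least 10 counts over all libraries were nt 9103, with 7 and 0 counts in the mutant against 2, 1 and 1 in WT, and nt 7979, with 6 and 0 against 2, 0 and 2.

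In the origin itself the genotypes overlapped on both strands. In rARS the mutant libraries had 23 and 1 sense counts (12.4 and 3.32 CPM), and the WT libraries 4, 3 and 2 (7.70, 6.74 and 4.30 CPM). The 2 mutant libraries lay on either side of WT (ratio 1.26, exact permutation p = 0.8). On the antisense strand of rARS they had 4 and 3 counts against 3, 0 and 2 in WT (ratio 1.80, exact permutation p = 0.6).

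At T2 itself no library had a count on either strand, and within 10 nt of it the sense counts were 3 and 0 in the mutant libraries and 1, 0 and 0 in WT. The barrier sites of 20 nt each held few counts. RFB3, the first that a polymerase leaving the 35S gene would meet, had 17 and 3 sense counts in the mutant libraries (9.13 and 9.96 CPM), against 1, 5 and 2 in WT (1.92, 11.2 and 4.30 CPM), and the genotypes overlapped (ratio 1.64, exact permutation p = 0.6; 3.07 without WT library 2). RFB2 had 3 and 2 sense counts in the mutant libraries and 1, 2 and 1 in WT, and RFB1 had 1 and 1 against 1, 1 and 0. On the antisense strand RFB2 had 6 and 1 counts in the mutant libraries against 3, 1 and 1 in WT (ratio 0.965, exact permutation p = 1.0), RFB1 9 and 0 against 0, 0 and 2 (ratio 1.69, exact permutation p = 0.8), and RFB3 4 and 0 against none. Adjusted over the 5 combinations of feature and strand with at least 10 counts, the exact permutation p was 1.0 for each. With 2 libraries against 3 no feature could have passed this test at any depth.

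Sense 3′ ends of IGS1 gathered at homopolymer runs. The 3 highest sense positions were nt 7171, nt 7170 and nt 7172, all U, inside a run of 22 U from nt 7165 to 7186 (the printed stretch is chrXII:460379-460419, minus strand). The run of 29 A that ends shortly before 5S (nt 7738 to 7766; printed stretch chrXII:459793-459837, minus strand) held 3 others. Both are shown as sense RNA because the placement of the ends within a run matters for reading them, and capitals mark positions with at least 10 counts over all libraries.
IGS1 U run: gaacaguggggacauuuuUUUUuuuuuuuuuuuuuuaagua
IGS1 A run: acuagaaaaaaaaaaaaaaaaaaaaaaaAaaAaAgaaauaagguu

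In the U run the mutant libraries had 25 and 6 sense counts and the WT libraries 17, 20 and 18. That is 16.7 ± 4.58 CPM in the mutant (SD, n = 2) and 38.8 ± 6.10 in WT (SD, n = 3), a ratio of 0.430 (exact permutation p = 0.2). At nt 7171 alone (chrXII:460399-460399) there were 10 and 1 counts in the mutant libraries against 6, 6 and 7 in WT. At nt 7170 they were 5 and 2 against 2, 5 and 4, and at nt 7172 5 and 2 against 4, 3 and 2. The window that holds the run, nt 7159 to 7258, was the only sense window of IGS1 that fell among the 3 tested, with 26 and 6 counts in the mutant libraries (13.97 and 19.9 CPM) and 18, 20 and 19 in WT (34.6, 44.9 and 40.8 CPM). Its log2 fold change was -1.87 ± 0.323 (edgeR adjusted p = 1.06e-04). This window passed the filter only through the WT libraries, so its call is no support for a difference. Without the filter its edgeR adjusted p was 4.38e-04. Among alternatives that kept both mutant libraries the adjusted p was up to 0.00239 (edgeR, scaled to the 35S total). Without mutant library 1 the log2 fold change was -1.44. The window before it, nt 7059 to 7158, was too low for the filter and had 5 and 0 counts in the mutant libraries against 6, 3 and 5 in WT (edgeR adjusted p = 0.00861 without the filter). The sources used here do not say how reads were placed in such runs, and its effect was not tested.

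The A run held 59 and 4 sense counts in the mutant libraries and 8, 9 and 10 in WT. The mutant libraries lay on either side of WT (22.5 ± 13.0 against 19.0 ± 3.21 CPM, exact permutation p = 0.8). The window around it, nt 7659 to 7773, had 76 and 6 counts in the mutant libraries against 12, 12 and 14 in WT and did not pass (log2 fold change -0.0081 ± 0.332, edgeR adjusted p = 0.981). The first window past the 35S gene, nt 6859 to 6958, had 52 and 11 counts in the mutant libraries, against 12, 14 and 5 in WT, and did not pass either (-0.02 ± 0.373, edgeR adjusted p = 0.978). As a share of IGS1 sense counts, though, the first 100 nt held 28.3% and 39.3% in the mutant libraries, against 18.2%, 23.0% and 9.80% in WT (exact permutation p = 0.2, adjusted p = 0.533 over 8 such shares). Without mutant library 1 the difference of 16.8 percentage points was 22.3, and without mutant library 2 it was 11.3.

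Antisense 3′ ends of IGS1 were densest in a pair of places, past the end of 5S and in a cluster beside the barrier sites. The 3 nucleotides past the 3′ end of 5S are in capitals, and the first 2 of them were among the 3 highest antisense positions of IGS1. The stretch is antisense RNA, 5′ to 3′, chrXII:459786-459815, plus strand, and opens with the last 11 nt of 5S.
5S 3 prime end, antisense: uggccgcaaccUUAuuucuuuuuuuuuuuu

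The first nucleotide past 5S, nt 7773 (chrXII:459797-459797), had 56 and 4 counts in the mutant libraries, against 28, 28 and 32 in WT. That is 21.7 ± 11.9 CPM in the mutant (SD, n = 2) and 61.8 ± 7.48 in WT (SD, n = 3), with no overlap (ratio 0.351, exact permutation p = 0.2). At the next nucleotide, nt 7772, there were 14 and 2 counts in the mutant libraries against 8, 10 and 7 in WT. The window of nt 7659 to 7773 held 140 and 16 counts in the mutant libraries (75.2 and 53.1 CPM), and 61, 47 and 62 in WT (117, 106 and 133 CPM). It fell by a log2 fold change of -1.23 ± 0.222 (edgeR adjusted p = 1.53e-04) and passed under each alternative tried (adjusted p up to 0.0130, edgeR). Without the highest position of each window it was -0.84. The 5S gene itself showed the same order, with 25948 and 30295 CPM on its own strand in the mutant libraries and 52628, 53419 and 62757 in WT, a ratio of 0.4998 (exact permutation p = 0.2). Its part in the change past its end was not tested. The last 100 nt of IGS1 made up 19.8% and 17.0% of IGS1 antisense counts in the mutant libraries and 50.4%, 54.0% and 48.8% in WT (exact permutation p = 0.2, adjusted p = 0.533 over 8 such shares), and the difference of -32.7 percentage points was -19.998 without the top position.

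The antisense cluster covered 3 neighbouring windows from nt 6959 to 7258, which take in most of RFB2, RFB1 and the U run. Its part with the positions of at least 20 counts, in capitals, is shown as antisense RNA, 5′ to 3′ (chrXII:460385-460538, plus strand), to let the sites be seen in their sequence. From the 3′ end these are nt 7042 and 7043, 7063, 7100, 7115 and 7165, and the first 5 end in U.
IGS1 antisense cluster: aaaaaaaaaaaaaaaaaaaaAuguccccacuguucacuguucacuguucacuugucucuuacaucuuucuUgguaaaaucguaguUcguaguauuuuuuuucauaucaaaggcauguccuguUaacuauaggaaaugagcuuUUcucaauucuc

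Window nt 6959 to 7058 held 165 and 20 counts in the mutant libraries (88.7 and 66.4 CPM), and 10, 10 and 13 in WT (19.2, 22.5 and 27.9 CPM). It rose by a log2 fold change of 1.38 ± 0.283 (edgeR adjusted p = 4.66e-04). Window nt 7059 to 7158 held 188 and 32 counts in the mutant libraries (101 and 106 CPM) against 28, 10 and 21 in WT (53.9, 22.5 and 45.1 CPM) and rose by 0.85 ± 0.281 (edgeR adjusted p = 0.0126). Window nt 7159 to 7258 held 119 and 17 counts in the mutant libraries (63.9 and 56.4 CPM) against 11, 5 and 10 in WT (21.2, 11.2 and 21.5 CPM) and rose by 1.304 ± 0.313 (edgeR adjusted p = 0.00163). This last window passed the filter only through the mutant libraries, so its call is no support for a difference. Without the filter its edgeR adjusted p was 0.0075. In all 3 both mutant libraries lay above all WT libraries. Without mutant library 1, the deeper one, the log2 fold changes were 1.06, 0.91 and 1.17 and the adjusted p-values 0.0667, 0.0592 and 0.0593 (edgeR), so that none passed. Scaled to the spacers inside the 35S gene they were 0.20, -0.34 and 0.12, and none passed. Antisense counts over the whole 35S gene, as above, were 1.79 times as high in the mutant by CPM, against ratios of 3.34, 2.56 and 3.35 in these windows. Single antisense windows of the 35S gene reached similar ratios. Of the 15 tested there, 6 rose and 1 fell (edgeR). The 6 passed the filter only through the mutant libraries and the 1 only through WT, so these calls are no support for a difference. The CPM ratios of the 15 ran from 0.792 at nt 3752 to 3851 to 4.53 at nt 1801 to 1900, and both of these windows were so selected.

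Single positions of the cluster were uneven between libraries. None of those with at least 20 counts would have reached that number from the WT libraries alone. Higher mutant counts at them are therefore no support for a difference. At nt 7063 (chrXII:460507-460507) the mutant libraries had 47 and 7 counts and the WT libraries 12, 0 and 2. At nt 7042 they had 42 and 3 against 2, 3 and 2, and at nt 7043 33 and 7 against 4, 4 and 1. At nt 7100 the counts were 20 and 0 in the mutant libraries and 0, 0 and 1 in WT, so that they came almost wholly from mutant library 1. In the U run of the sense strand, which is an A run here, antisense counts were 84 and 10 in the mutant libraries and 8, 4 and 5 in WT (39.2 ± 8.44 against 11.7 ± 3.31 CPM, ratio 3.34, exact permutation p = 0.2). The same 22 nucleotides thus held fewer sense and more antisense CPM in the mutant libraries. The remaining antisense windows of IGS1 had 28 counts or fewer in each library and were not tested under the filter.

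**Figure D5:**
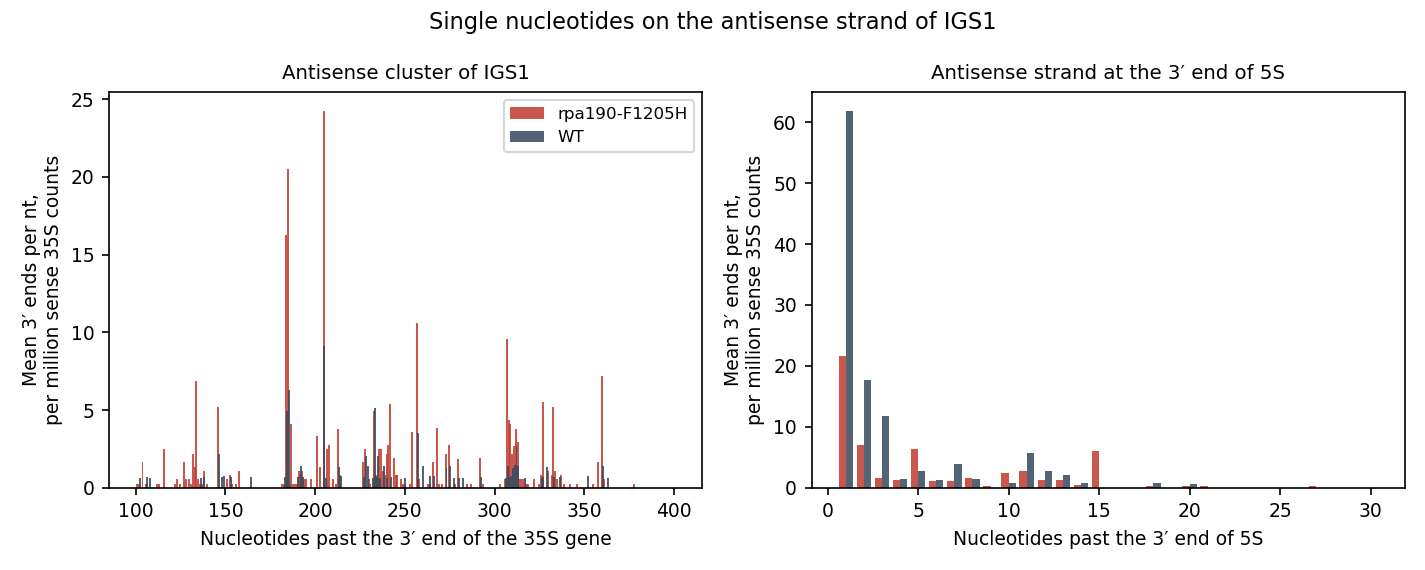
Mean CPM per nucleotide on the antisense strand of IGS1, in the 3 windows of the cluster (left, by distance past the 35S gene) and over the 30 nt past 5S (right); bars are means of the 2 mutant and the 3 WT libraries. At nt 7063 the mean is 24.2 in the mutant and 9.13 in WT. The highest sites of the cluster reached their counts mainly through the mutant libraries, so this is no support for a difference. WT is higher at the first nucleotide past 5S (21.7 in the mutant and 61.8 in WT).

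The last base of the RNA was read for each spacer and strand. On the sense strand of IGS2, where G makes up 29.8% of the sequence, it ended 22.4% and 22.2% of counts in the mutant libraries (56 and 8 counts) and 2 of 18, 1 of 11 and 3 of 15 counts in WT. The difference was 8.91 percentage points (exact permutation p = 0.2, adjusted p = 0.6 over the 4 bases). On the antisense strand of IGS1, where G makes up 12.1% of the sequence, it ended 6.27% and 7.45% in the mutant libraries (44 and 7 counts) against 3.31%, 1.15% and 1.57% in WT (4, 1 and 2 counts), a difference of 4.85 points (exact permutation p = 0.2, adjusted p = 0.4). On the sense strand of IGS1 the G shares overlapped, at 8.15% and 7.14% in the mutant libraries and 10.6%, 6.56% and 3.92% in WT (exact permutation p = 0.8), and on the antisense strand of IGS2 there were 3 and 2 counts at G in the mutant libraries and 0, 1 and 0 in WT. U was the most frequent last base in IGS1 in 4 of the 5 libraries on the sense strand and in all 5 on the antisense strand. On the sense strand it ended 38.0% and 57.1% of counts in the mutant libraries and 65.2%, 62.3% and 56.9% in WT (exact permutation p = 0.4), and on the antisense strand 61.0% and 64.9% against 66.9%, 72.4% and 65.4% (exact permutation p = 0.2).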

How the data were processed

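The submitters' processing notes name SAMtools 1.3.1, BWA 0.6, Trim Galore 0.4.1 and bcl2fastq 2.18.0.012. The deposited files hold raw counts of RNA 3′ ends for each nucleotide and strand of 1 rDNA repeat, as the authors made them, and give no spread. The handling of multiply placed reads, duplicates and molecular identifiers is not given in the sources used here. Counts were summed by spacer, annotated feature and strand, in windows of 100 nt (a remainder under 50 nt joined its neighbour) and in runs of 10 or more U or A, and divided by the sense 35S total of the library. Single values were compared by exact permutation (SciPy 1.17.1), with exact Poisson or binomial intervals of 95%. Windows of the whole repeat were tested with edgeR 4.0.16 (TMM, filterByExpr with a minimum count of 10, quasi-likelihood, Benjamini-Hochberg) in R 4.3.3. The same steps except the filter were first tested on simulated counts of fixed spread. DESeq2 1.42.0 was an alternative. Other alternatives were scaling, filter, window size, positions left out, a replicate block and each library left out. No pair of libraries of 1 genotype was a repeat deposit, with a chi-square over windows of at least 11.1 times its degrees of freedom.

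Named items were both spacers and all features on each strand, windows past the threshold, and the 3 highest windows and positions (at least 10 counts) of each spacer and strand. The homopolymer runs, the windows at nt 7895, 8595 and 7059 to 7158 on the sense strand, and the antisense positions with at least 20 counts were chosen after their values were seen. The members and lists were chosen with earlier results of these data known.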

Additional observations from a re-analysis of the deposited data

How the results depend on the processing

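Of 351 alternatives over 37 results, 297 kept direction and call and 36 turned direction. Scaled to the spacers inside the 35S gene, the ratio was 0.485 for IGS1 antisense, 0.702 for IGS2 antisense, 0.540 for RFB3 sense, 0.518 for RFB1 antisense, 0.399 for rARS sense and 0.629 for rARS antisense, 0 spacer windows rose and 4 fell, and IGS1 antisense nt 7059 to 7158 was at -0.34 (log2). Scaled to 35S antisense counts, chosen after seeing the data, the ratio was 0.818 for IGS1 antisense, 0.853 for RFB3 sense, 0.869 for RFB1 antisense and 0.683 for rARS sense, which was 0.958 without mature 3′ ends in the total. The IGS2 share of antisense counts differed by -1.27 points without positions within 20 nt of 5S. For IGS1 antisense U the difference was 3.79 points without the top position and 2.43 with each position taken once, and for IGS2 antisense G it was -0.0146 without the top position. IGS1 sense nt 6859 to 6958 was at 0.45 scaled to the 35S total and 0.0712 by DESeq2, and nt 7659 to 7773 at 0.44 scaled to the 35S total and 0.29 without its top position (log2). The causes were not tested. With each library left out, the ratio ran from 1.23 to 3.07 for RFB3 sense, 0.816 to 1.49 for RFB2 antisense, 0.531 to 1.98 for rARS sense and 0.640 to 2.97 for rARS antisense. For RFB1 antisense it was between 0 and 3.38 in the 4 cases that gave a ratio; without WT library 3 the other WT libraries were at 0 and none could be given. The difference ran from -0.934 to 2.41 points for IGS1 sense G, -2.95 to 6.57 for IGS2 antisense G and -1.96 to 0.744 for the first 100 nt of IGS1 antisense. The count of windows that rose ran from 0, without mutant library 1, to 4, and the log2 change from -0.30 to 0.32 at IGS1 sense nt 6859 to 6958 and from -0.86 to 0.13 at nt 7659 to 7773. Fitted with a replicate block, 3 spacer windows rose and 2 fell, without nt 8395 to 8494 of IGS2 sense; same-numbered libraries did not deviate together (r = -0.021 and -0.21), and the labels name no shared batch. The filter left no value for nt 8395 to 8494 when scaled to the spacers or without the top position. Depth limits single features to a floor of 9.96 CPM in mutant library 2.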
